A study of Neurospora crassa with 6 samples.

Results

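The 10 genes of nitrogen assimilation and glutamate metabolism described here were followed across the 6 libraries of the study and were chosen by locus ID from the 9691 genes in each table. The 10 genes are nit-2 (NCU09068), nit-4 (NCU08294), nmr (NCU04158), nit-10 (NCU07205), nit-3 (NCU05298), nit-6 (NCU04720), gln-1 (NCU06724), en(am)-2 (NCU01744), am (NCU01195) and gdh-1 (NCU00461). All 10 were found, each under an ID that names a single locus. The cultures were wild-type conidia, the asexual spores, of the filamentous fungus Neurospora crassa, germinated for 6 h in liquid medium under constant light. They then received 20 µM staurosporine, an inhibitor of protein kinases, or its solvent DMSO, for 1 h. Each agent was given in 3 media, labelled 0 Ca2+, standard minimal medium and 20 mM CaCl2. The 6 groups are therefore staurosporine and DMSO in each medium, with 1 library per group, so that within a medium there is no replicate and no test. The labels name the strain only as wild type and do not say whether any library pools several cultures. They give no calcium concentration for standard medium, so its place between the others in the calcium order is assumed.

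Nitrogen enters fungal metabolism by a short route. Nitrate is taken up and reduced to nitrite and then to ammonium. Ammonium is built into glutamate by the NADP-dependent glutamate dehydrogenase, and into glutamine by glutamine synthetase, and glutamate synthase uses that glutamine to make more glutamate. The NAD-dependent glutamate dehydrogenase runs the other way and releases ammonium from glutamate. In Neurospora, the GATA factor NIT2 activates genes for secondary nitrogen sources, NMR binds NIT2 and restrains it while ammonium or glutamine is plentiful, and NIT4 activates the nitrate genes when nitrate is present.

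Expression was measured on poly(A) RNA with single reads of 50 bp and is given as the authors' FPKM, a level per transcript length and per library size, which allows levels to be compared between genes. In a whole culture, fewer cells of a type and less RNA per cell cannot be told apart. The tables hold no read counts, so the depth of each library is unknown. The FPKM of all genes summed to between 500315 and 696047 in the staurosporine libraries and to between 940590 and 1001100 in the DMSO libraries. Rescaling every library to the same sum, called equal sums here, therefore shifts ratios of staurosporine to DMSO upward, their median over all genes by 0.41 in 0 Ca2+, 0.83 in standard and 0.53 in 20 mM CaCl2 medium on the log2 scale. The 0 Ca2+ library with staurosporine stood apart from the rest, with a correlation of log2(FPKM + 1) across genes of 0.841 to 0.909 with the other 5 libraries, against 0.935 to 0.991 among those 5. As a check on growth stage, the conidiation genes con-6, con-8 and con-10 stood at 42.2, 10.3 and 35.1 FPKM in 0 Ca2+ medium with staurosporine, between 0.972 and 7.14 FPKM in the other 2 staurosporine libraries and between 0.990 and 2.59 FPKM in the 3 DMSO libraries. Their part in the values below was not tested.

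The 10 genes differed widely in level. In every library gln-1 and am held the first and second place among them, with 295 to 1392 FPKM for gln-1 and 421 to 1959 FPKM for am, and nit-4 was the lowest at 1.82 to 3.93 FPKM. Together the 10 genes made up 0.171% of the FPKM sum in 0 Ca2+ medium with staurosporine and between 0.260% and 0.346% in the other 5 libraries. The gene whose level varied most was gdh-1, with an SD of 1.48 over the 6 values of log2(FPKM + 1). Of the 7415 genes that averaged 1 FPKM or more over the libraries, 4.14% varied more. The SD was 1.19 for nmr, 1.10 for nit-10 and 0.30 for nit-4, against a median of 0.52 over all 7415 genes.

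**Figure D1:**
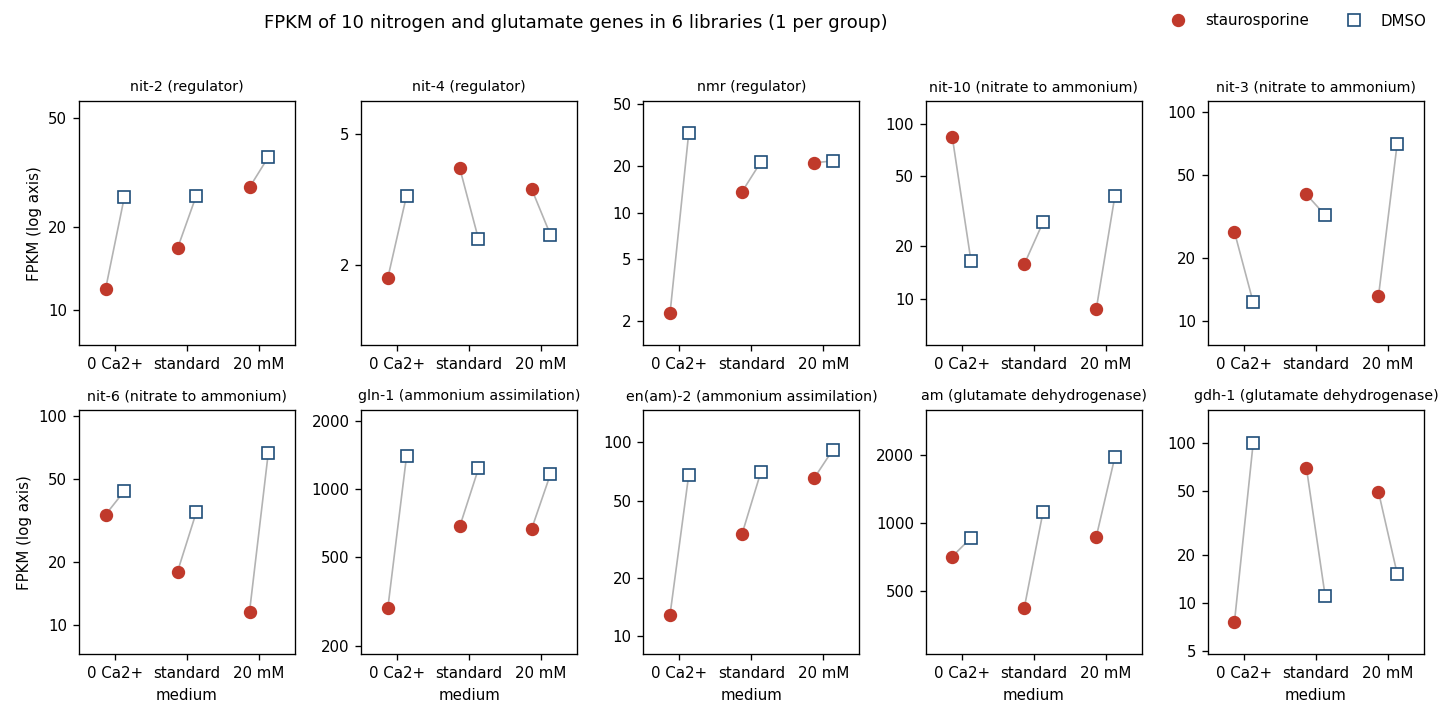
FPKM of each of the 10 genes (log axis, its range set per gene) in 0 Ca2+, standard and 20 mM CaCl2 medium, with 1 library per point: filled circles are staurosporine, open squares DMSO, and grey lines join the libraries of a medium. As deposited, staurosporine is the lower point in all 3 media for 6 genes (nit-2, nmr, nit-6, gln-1, en(am)-2 and am), against 23.0% of all genes, and under equal sums for 0 of the 10. For gdh-1 the staurosporine library is far below DMSO in 0 Ca2+ medium and above it in the other media.

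Of the regulators, nmr, the gene of the protein that restrains NIT2, showed the widest difference between agents, and it did so in 0 Ca2+ medium. There nmr had 2.25 FPKM with staurosporine and 32.5 FPKM with DMSO. In standard medium it had 13.6 FPKM with staurosporine and 21.1 FPKM with DMSO, and in 20 mM CaCl2 medium 20.9 and 21.5 FPKM. Thus the 0 Ca2+ library with staurosporine, which stands apart over all genes, was far below the other 5 libraries, which lay between 13.6 and 32.5 FPKM. Ratios of staurosporine to DMSO were taken as log2((FPKM + 1) ratio), on which changes of genes with low values come out too small. For nmr this log2 ratio was -3.37 in 0 Ca2+, -0.60 in standard and -0.038 in 20 mM CaCl2 medium, and under equal sums -3.05, 0.27 and 0.53, so that only the first kept its sign.

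The activator gene nit-2 was lower with staurosporine in each medium, with a smaller gap at each step to more calcium. It had 11.9 FPKM with staurosporine and 25.7 FPKM with DMSO in 0 Ca2+ medium, 16.8 and 26.0 FPKM in standard medium, and 27.9 and 36.0 FPKM in 20 mM CaCl2 medium. Its log2 ratios of staurosporine to DMSO were -1.05, -0.61 and -0.35 in that order, and under equal sums -0.63, 0.27 and 0.22, with the sign turned in the 2 media with more calcium. The nitrate-specific activator gene nit-4 stayed low throughout. It had 1.82 FPKM with staurosporine and 3.24 FPKM with DMSO in 0 Ca2+ medium, 3.93 and 2.39 FPKM in standard medium, and 3.39 and 2.47 FPKM in 20 mM CaCl2 medium. For nit-4 the log2 ratios were -0.59, 0.54 and 0.34, all within a log2 ratio of 1, although 1.32 in standard medium under equal sums.

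The 3 genes that carry nitrate to ammonium were all lower with staurosporine in 20 mM CaCl2 medium. In 0 Ca2+ medium nit-10 and nit-3 were higher, and nit-6 was within a log2 ratio of 1 with a sign that depended on the scaling. The nitrate transporter gene nit-10 had 84.2 FPKM with staurosporine and 16.5 FPKM with DMSO in 0 Ca2+ medium, 15.7 and 27.3 FPKM in standard medium, and 8.69 and 38.8 FPKM in 20 mM CaCl2 medium. Its highest and its lowest level of the 6 libraries were thus both in staurosporine libraries, at the opposite ends of the calcium series. The log2 ratios of staurosporine to DMSO for nit-10 were 2.29 in 0 Ca2+, -0.76 in standard and -2.04 in 20 mM CaCl2 medium, and under equal sums 2.74, 0.11 and -1.5.

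Nitrate reductase, encoded by nit-3, makes nitrite from nitrate. The nit-3 level was 26.5 FPKM with staurosporine and 12.2 FPKM with DMSO in 0 Ca2+ medium, 40.1 and 31.9 FPKM in standard medium, and 13.0 and 70.1 FPKM in 20 mM CaCl2 medium. The log2 ratios of nit-3 were 1.06, 0.32 and -2.34, and under equal sums 1.5, 1.22 and -1.79, with the same signs. Nitrite reductase, encoded by nit-6, makes ammonium from nitrite. The nit-6 level was 33.7 FPKM with staurosporine and 43.7 FPKM with DMSO in 0 Ca2+ medium, 18.0 and 34.6 FPKM in standard medium, and 11.6 and 66.4 FPKM in 20 mM CaCl2 medium. The log2 ratios of nit-6 were -0.37, -0.90 and -2.42, and under equal sums 0.077, -0.030 and -1.87. In 20 mM CaCl2 medium, of 7204 genes, 18 had a lower ratio than nit-6, 25 a lower one than nit-3 and 45 a lower one than nit-10. The FPKM of nit-6 relative to nit-3, which needs no scaling between libraries, was 1.27 with staurosporine and 3.58 with DMSO in 0 Ca2+ medium. This ratio was 0.450 and 1.08 in standard medium and 0.890 and 0.948 in 20 mM CaCl2 medium.

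The genes of glutamine synthetase and glutamate synthase were both lower with staurosporine past a log2 ratio of 1 in 0 Ca2+ medium, under equal sums as well, and their ratios were smaller or changed sign with the scaling in the other media. The glutamine synthetase gene gln-1 had 295 FPKM with staurosporine and 1392 FPKM with DMSO in 0 Ca2+ medium, 682 and 1231 FPKM in standard medium, and 667 and 1163 FPKM in 20 mM CaCl2 medium. The 3 staurosporine libraries lay between 295 and 682 FPKM, all below the 3 DMSO libraries. The gln-1 ratios were -2.23, -0.85 and -0.80 on the log2 scale, and under equal sums -1.78, 0.058 and -0.21. The glutamate synthase gene en(am)-2 had 12.9 FPKM with staurosporine and 68.0 FPKM with DMSO in 0 Ca2+ medium, 33.6 and 69.9 FPKM in standard medium, and 65.1 and 91.3 FPKM in 20 mM CaCl2 medium. Its log2 ratios were -2.31, -1.03 and -0.48, and under equal sums -1.89, -0.14 and 0.099. All 3 staurosporine libraries lay below all 3 DMSO libraries for 4 of the 10 genes, nmr, nit-6, gln-1 and en(am)-2, against 14.8% of 7415 genes, and all 3 lay above for 0 of the 10, against 7.5%. Under equal sums the groups overlapped for all 10. On that scaling all 3 staurosporine libraries lay below all 3 DMSO libraries for 2.76% of all genes and above them for 29.7%.

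The pair of glutamate dehydrogenase genes went opposite ways with staurosporine in standard and 20 mM CaCl2 medium. In 0 Ca2+ medium both were lower as deposited. The biosynthetic, NADP-dependent enzyme is encoded by am, which had 711 FPKM with staurosporine and 859 FPKM with DMSO in 0 Ca2+ medium, 421 and 1114 FPKM in standard medium, and 867 and 1959 FPKM in 20 mM CaCl2 medium. The 20 mM CaCl2 staurosporine library, at 867 FPKM, was above the lowest DMSO library, so the groups overlapped for am. On the log2 scale the am ratios were -0.27, -1.40 and -1.18, and under equal sums 0.18, -0.49 and -0.59, so that none was past 1. The catabolic, NAD-dependent enzyme is encoded by gdh-1, which had 7.59 FPKM with staurosporine and 101 FPKM with DMSO in 0 Ca2+ medium, 70.0 and 11.0 FPKM in standard medium, and 49.8 and 15.2 FPKM in 20 mM CaCl2 medium. The log2 ratios of gdh-1 were -3.57, 2.56 and 1.65, and under equal sums -3.16, 3.47 and 2.22. Within a library, the FPKM of am relative to gdh-1 was 93.7 with staurosporine and 8.53 with DMSO in 0 Ca2+ medium, 6.02 and 101 in standard medium, and 17.4 and 129 in 20 mM CaCl2 medium. The ratio of the biosynthetic to the catabolic gene was thus higher with staurosporine in 0 Ca2+ medium and lower with staurosporine in the other media, on a measure that scaling between libraries does not touch.

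**Figure D2:**
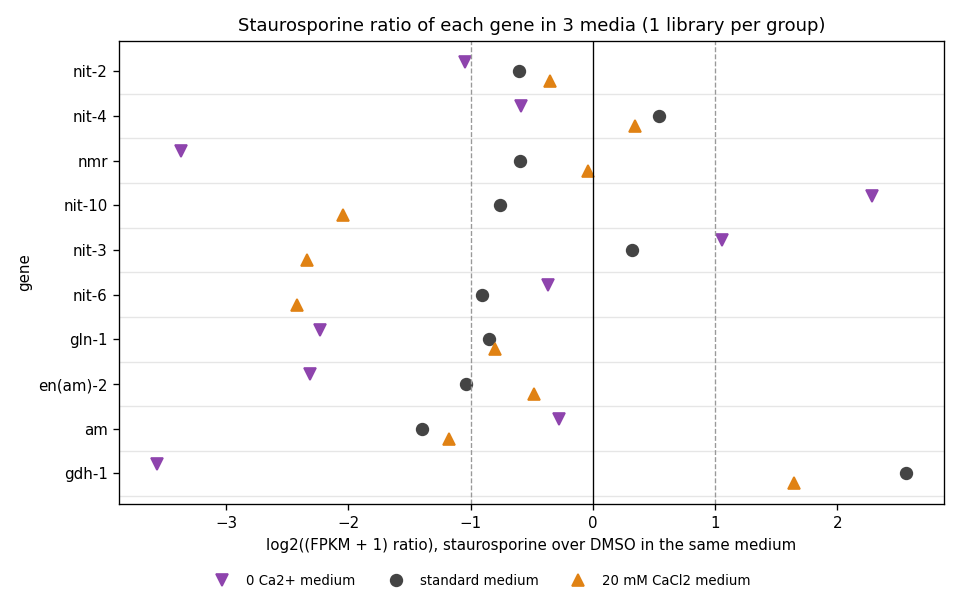
The log2((FPKM + 1) ratio) of staurosporine to DMSO (horizontal axis) for each of the 10 genes (rows), 1 point per medium, each from 2 single libraries. Dashed lines mark log2 ratios of -1 and 1. The points of gdh-1 run between -3.57 in 0 Ca2+ medium and 2.56 in standard medium, and those of nit-10 between -2.04 in 20 mM CaCl2 medium and 2.29 in 0 Ca2+ medium.

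In 20 mM CaCl2 medium the 3 genes of the nitrate route were lower with staurosporine and gdh-1 was higher, while in 0 Ca2+ medium nit-10 and nit-3 were the higher genes. A gene counted as higher or lower in a single pair of libraries at a log2 ratio of 1 or -1 or beyond, given an average of 1 FPKM or more over the pair. In 0 Ca2+ medium staurosporine had 2 of the 10 genes higher, against 18.7% of 7531 genes, and 5 lower, against 20.9%, with 4 lower under equal sums. In standard medium 1 gene was higher, against 13.4% of 7167 genes, and 2 were lower, against 14.9%, and under equal sums this count became 3 higher and 0 lower. In 20 mM CaCl2 medium 1 gene was higher, against 2.62% of 7204 genes, and 4 were lower, against 6.16%. The 4 were nit-10, nit-3, nit-6 and am, and the 1 was gdh-1. Under equal sums, and also with ratios centred on the median, am was within a log2 ratio of 1 and the count was 1 higher and 3 lower. The shares of all genes in these 3 media are as deposited. Equal sums shifts the median of all genes by 0.41, 0.83 and 0.53 in the order of calcium. In the authors' deposited table, which calls genes from single libraries, staurosporine gave 7 calls among the 10 genes in 0 Ca2+ medium (2 higher, 5 lower, against 15.5% and 20.4% of genes). In the authors' deposited table there were 4 calls in standard medium (1 higher, 3 lower, against 12.8% and 13.9%) and 5 in 20 mM CaCl2 medium (1 higher, 4 lower, against 1.96% and 4.18%).

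Over the 3 media taken as repeats, no effect of staurosporine on any of the 10 genes passed the test. Of the 10, 6 had a ratio below 0 in all 3 media, namely nit-2, nmr, nit-6, gln-1, en(am)-2 and am, against 23.0% of 7415 genes, and 0 had a ratio above 0 in all 3, against 13.6%. Under equal sums a ratio below 0 in all 3 media was found for 0 of the 10 genes and 5.03% of all genes. A ratio above 0 in all 3 was then found for 0 of the 10 and 42.6% of all genes. With ratios centred on the median, nit-2, nit-6, gln-1, en(am)-2 and am stayed below 0 in all 3 media. The centred ratio of nmr turned to 0.18 in 20 mM CaCl2 medium. As deposited and without the 0 Ca2+ pair, 7 of the 10 were below 0 in both other media, against 33.2% of all genes. The moderated test of limma on the 3 ratios called 0 of the 10 at an adjusted p below 0.05 with a mean log2 ratio of 1 or -1 or beyond, and 12 of 7415 genes, 0.162%. At an unadjusted p below 0.05, limma gave 4 of the 10, against 14.1% of all genes. These 4 were gln-1, with a mean log2 ratio of -1.30 (SE 0.42, limma adjusted p = 0.292), en(am)-2, with -1.28 (SE 0.44, limma adjusted p = 0.305), nit-6, with -1.23 (SE 0.47, limma adjusted p = 0.330), and am, with -0.95 (SE 0.38, limma adjusted p = 0.344). As deposited, each was lower in 3 of 3 media. Under equal sums none of the 4 was, their mean log2 ratios were -0.65 for gln-1, -0.64 for en(am)-2, -0.61 for nit-6 and -0.30 for am, and 0 of the 10 genes reached that unadjusted p. Without the 0 Ca2+ pair the means were -0.83 for gln-1, -0.76 for en(am)-2, -1.66 for nit-6 and -1.29 for am. For the other 6 genes the mean log2 ratio lay between -1.33 for nmr (SE 0.65) and 0.21 for gdh-1 (SE 1.10), with limma adjusted p between 0.409 and 0.951. The nmr mean was -0.32 without the 0 Ca2+ pair and -0.75 under equal sums. For nit-4, nit-10, nit-3 and gdh-1 the mean is taken over ratios of opposite sign. The spread between media is part of the error of this test.

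Among the DMSO libraries, which differ by label in calcium alone, the genes with the widest differences were gdh-1 and nit-3. The 101 FPKM of gdh-1 in 0 Ca2+ medium against 11.0 FPKM in standard medium is a log2 ratio of 3.08, and 1 of 7079 genes had a higher one. For nit-3 the log2 ratio was -1.32 for 0 Ca2+ against standard medium and 1.11 for 20 mM CaCl2 against standard medium, so its level followed the order of calcium. These 3 are the only ratios of the 10 genes past 1 against standard medium under DMSO. That makes 1 gene higher and 1 lower in 0 Ca2+ medium, against 2.99% and 2.33% of genes, and 1 higher and 0 lower in 20 mM CaCl2 medium, against 2.12% and 0.801%. In the authors' deposited table gdh-1 was called higher and nit-3 lower in 0 Ca2+ medium, against 2.01% and 1.94% of genes. In 20 mM CaCl2 medium the authors' deposited table called nit-3 higher, against 1.25%, and 0 of the 10 lower, against 0.503%. The comparisons with standard medium share its library. Set directly against 0 Ca2+ medium, the 20 mM CaCl2 library with DMSO had nit-3 higher by a log2 ratio of 2.43 and nit-10 and am each by 1.19, and gdh-1 lower at -2.65. These are 3 of the 10 genes higher, against 4.63% of 7177 genes, and 1 lower, against 3.54%. Over the 3 media with DMSO, 5 of the 10 genes, nit-2, nit-10, nit-3, en(am)-2 and am, had a higher FPKM at each step of calcium, and gln-1 had a lower one at each step. The step from 0 Ca2+ to standard medium was small for nit-2, 25.7 to 26.0 FPKM, and for en(am)-2, 68.0 to 69.9 FPKM. Of 7415 genes 17.7% were ordered upward and 21.3% downward.

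With staurosporine the calcium series took a different course for most of the genes. Set against 0 Ca2+ medium, the 20 mM CaCl2 library with staurosporine had 5 of the 10 genes higher, against 20.5% of 7598 genes, and 2 lower, against 25.1%. The log2 ratio was 2.75 for nmr, 2.56 for gdh-1, 2.25 for en(am)-2 and 1.17 for nit-2 and for gln-1, the 5 that were higher, and -3.14 for nit-10 and -1.46 for nit-6, the 2 that were lower. The ratio of 20 mM CaCl2 to 0 Ca2+ medium had opposite signs with staurosporine and with DMSO for 7 of the 10 genes, against 45.0% of 7415 genes. For nit-10 it was -3.14 with staurosporine and 1.19 with DMSO. For gdh-1 it was 2.56 with staurosporine and -2.65 with DMSO, and for nit-3 it was -0.97 with staurosporine and 2.43 with DMSO. Over the 3 media with staurosporine, nit-2, nmr and en(am)-2 were ordered upward with calcium and nit-10 and nit-6 downward, which is 3 and 2 of the 10 genes, against 23.1% and 27.8% of 7415 genes. Only nit-2 and en(am)-2 were ordered upward under both agents, and with DMSO their first step was the small one given above.

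**Figure D3:**
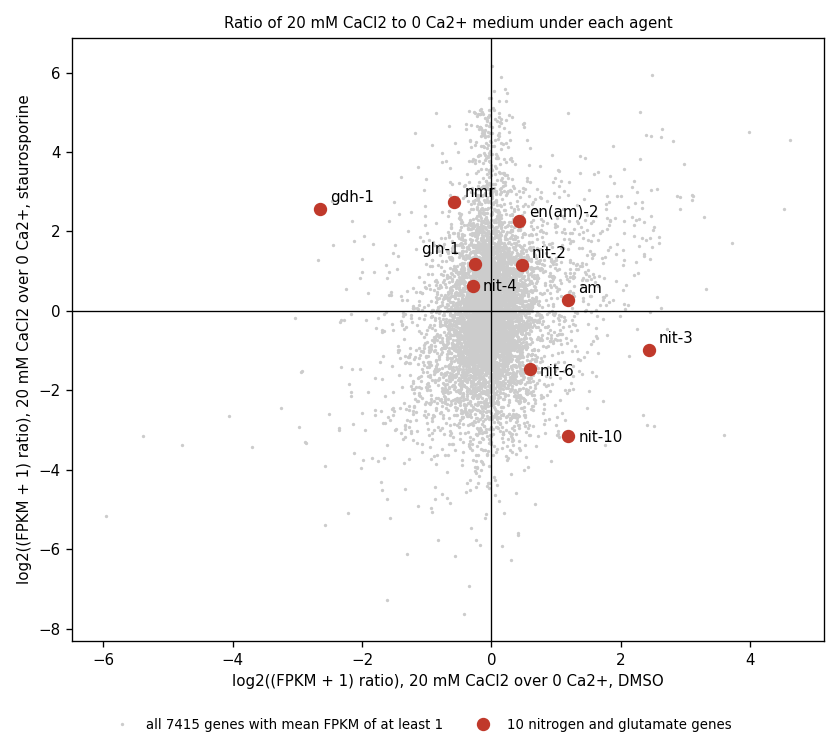
The log2((FPKM + 1) ratio) of 20 mM CaCl2 to 0 Ca2+ medium with staurosporine (vertical axis) against the same ratio with DMSO (horizontal axis), for 7415 genes (grey) and the 10 genes (red, named), from 4 single libraries. The red point of gdh-1 lies in the upper left (2.56 with staurosporine, -2.65 with DMSO), and those of nit-3, nit-6 and nit-10 lie in the lower right.

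Against standard medium, the staurosporine libraries held 1 of the 10 genes higher in 0 Ca2+ medium, nit-10 at a log2 ratio of 2.35, against 18.6% of 7549 genes, and 4 lower, against 17.9%. The lower ones were gdh-1 at -3.05, nmr at -2.17, en(am)-2 at -1.32 and gln-1 at -1.20, and 32 of 7549 genes had a lower ratio than gdh-1. In 20 mM CaCl2 medium with staurosporine 1 gene was higher, am at 1.04, against 12.1% of 7219 genes, and 1 was lower, nit-3 at -1.55, against 12.5%. Under equal sums the counts became 1 higher and 6 lower in 0 Ca2+ medium and 0 higher and 3 lower in 20 mM CaCl2 medium. The shares of all genes given here are as deposited. Equal sums also shifted the median ratio of all genes, by -0.45 in 0 Ca2+ and -0.39 in 20 mM CaCl2 medium, so these counts cannot be read against them.

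The dependence of the staurosporine ratio on the medium was largest for gdh-1. Its ratio in 0 Ca2+ medium minus that in standard medium was -6.13 on the log2 scale, and 0 of the other genes among 7415 had a difference as far from 0. The ratio was past 1 in opposite directions in these 2 media for 1 of the 10 genes, against 1.08% of all genes. Between 20 mM CaCl2 and 0 Ca2+ medium the same held for 3 of the 10, against 2.02%, with a difference of 5.21 for gdh-1, -4.33 for nit-10 and -3.40 for nit-3. Between 20 mM CaCl2 and standard medium it held for 0 of the 10, against 0.634%. Such a difference rests on 4 single libraries, and the comparisons with a common medium share its libraries.

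The genes of neighbouring steps, in 8 lists of 91 genes, differed in direction between lists and media. Counts are of list genes that averaged 1 FPKM or more over the pair of libraries and are read against the shares of all genes, 18.7% higher and 20.9% lower in 0 Ca2+, 13.4% and 14.9% in standard, and 2.62% and 6.16% in 20 mM CaCl2 medium. Over the 8 lists, 18 genes were higher and 21 lower in 0 Ca2+, 15 and 10 in standard, and 4 and 16 in 20 mM CaCl2 medium. Under equal sums these counts were 24 and 15, 35 and 1, and 12 and 6. The shares of all genes are as deposited and do not serve for the counts under equal sums. That scaling shifts the median of all genes by 0.41, 0.83 and 0.53 in the 3 media. The ammonium transporter gene MEP1 (NCU03257) had 18.8 FPKM with staurosporine and 41.6 FPKM with DMSO in 0 Ca2+ medium, 45.6 and 51.1 FPKM in standard medium, and 58.0 and 68.3 FPKM in 20 mM CaCl2 medium. In its list of nitrate, nitrite and ammonium genes beside the 10, 0 genes were higher in any medium and 1 of 3, MEP1, was lower in 0 Ca2+ medium. Log2 ratios of the other transporter genes named were -0.44, 0.36 and 0.85 for the formate/nitrite transporter gene NCU00758 and -0.41, -0.25 and 0.057 for the ammonium transporter gene NCU05843, both of which lay below 5 FPKM. Of the 6 genes of the molybdenum cofactor, which nitrate reductase carries, 2 were lower in 20 mM CaCl2 medium, against 6.16% of all genes. All 6 had a ratio below 0, in a medium where the median of all genes was itself below 0, at -0.14. The median of the 6 was -0.61, and -0.13 under equal sums. Among them the molybdopterin binding protein gene NCU08824 had log2 ratios of -0.91, -1.08 and -1.26 in the order of calcium. The molybdopterin synthase subunit gene NCU08375 had 0.058, -0.83 and -0.50, and NCU00498, a cofactor synthesis gene, had 1.84, 0.37 and -1.16. The order of NCU00498 over the media was that of nit-10, nit-3 and nit-6.

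Of the 12 genes of purine and urea use, 5 were higher and 2 lower in 0 Ca2+ medium, 2 and 2 in standard medium, and 0 and 5 in 20 mM CaCl2 medium. The shares of all genes higher and lower were 18.7% and 20.9%, 13.4% and 14.9%, and 2.62% and 6.16%. Their median log2 ratio was 0.36, -0.43 and -0.88 in the 3 media, against -0.092, 0.11 and -0.14 for all genes, and 0.80, 0.45 and -0.34 under equal sums. The urea transporter gene NCU01977 went against that order, with 25.6 FPKM with staurosporine and 250 FPKM with DMSO in 0 Ca2+ medium, 120 and 240.0 FPKM in standard medium, and 376 and 286 FPKM in 20 mM CaCl2 medium. Uricase (NCU07853), which oxidizes urate, had 55.9 and 75.7 FPKM, 10.7 and 52.1 FPKM, and 12.9 and 25.8 FPKM with staurosporine and DMSO in the same 3 media. The allantoicase gene alc-1 had log2 ratios of -1.17, -0.43 and -1.61.

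In amino acid breakdown 6 genes were higher and 3 lower of 16 in 0 Ca2+ medium, 5 and 2 of 14 in standard medium, and 2 and 3 of 12 in 20 mM CaCl2 medium, with shares of all genes of 18.7% and 20.9%, 13.4% and 14.9%, and 2.62% and 6.16%. The l-amino acid oxidase gene lao, whose enzyme releases ammonium from amino acids, had 107 FPKM with staurosporine and 31.7 FPKM with DMSO in 0 Ca2+ medium, 190 and 40.9 FPKM in standard medium, and 45.9 and 22.1 FPKM in 20 mM CaCl2 medium. As deposited, all 3 staurosporine libraries were above all 3 DMSO libraries for lao, as for 7.5% of all genes. Under equal sums that held for 29.7% of all genes. A pair of low genes that use up glutamate or glutamine lay the same way as deposited. The lao gene and this pair were named for their large mean staurosporine ratios, so their separation is not independent of that choice. Glutamate decarboxylase (NCU06803) had 5.20 and 0.225 FPKM, 3.83 and 0.134 FPKM, and 2.31 and 0.308 FPKM with staurosporine and DMSO in the order of calcium, and glutaminase A (NCU03648) had 4.63 and 0.502 FPKM, 4.60 and 0.522 FPKM, and 0.857 and 0.628 FPKM. A more abundant glutamate decarboxylase gene, NCU06112, named here after its values were seen, was lower with staurosporine as deposited, with 41.4 and 131 FPKM, 37.9 and 94.9 FPKM, and 57.1 and 61.5 FPKM with staurosporine and DMSO. Of the 14 list genes that averaged 1 FPKM or more over the 6 libraries, 4 had a ratio above 0 in all 3 media as deposited, against 13.6% of all genes. In the same list 5 had a ratio below 0 in all 3, against 23.0%. Under equal sums these shares of all genes were 42.6% and 5.03%, and the list was not counted on that scaling.

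Arginine synthesis, which starts from glutamate and takes nitrogen from glutamine, had 1 gene higher and 1 lower of 11 in 0 Ca2+ medium, 2 and 1 in standard medium, and 1 and 3 in 20 mM CaCl2 medium. The shares of all genes higher and lower were 18.7% and 20.9%, 13.4% and 14.9%, and 2.62% and 6.16%. The median log2 ratio of the list was 0.33, 0.56 and -0.41, and under equal sums 0.78, 1.42 and 0.14. The carbamoyl-phosphate synthase gene arg-3 had 265 FPKM with staurosporine and 258 FPKM with DMSO in 0 Ca2+ medium, 623 and 138 FPKM in standard medium, and 383 and 168 FPKM in 20 mM CaCl2 medium. For arg-13, of a mitochondrial ornithine carrier, the log2 ratios were -2.11, -1.64 and 0.63, and for arg-6 they were 0.97, 0.88 and -0.068. Among 11 enzymes that use the amide group of glutamine, 2 were higher and 4 lower in 0 Ca2+ medium, 0 and 1 in standard medium, and 0 and 1 in 20 mM CaCl2 medium. The shares of all genes are those given for arginine synthesis. The purine synthesis gene ad-7 had 7.30 FPKM with staurosporine and 94.1 FPKM with DMSO in 0 Ca2+ medium, 18.2 and 67.7 FPKM in standard medium, and 91.5 and 79.3 FPKM in 20 mM CaCl2 medium. Its log2 ratios were -3.52, -1.84 and 0.20, an order over the media that nmr, at -3.37, -0.60 and -0.038, shared with nit-2, gln-1 and en(am)-2. Those of the CTP synthase gene NCU00261 were -1.78, -0.96 and 0.55, and those of NCU08685, of phosphoribosylformylglycinamidine synthase in purine synthesis, were -1.37, -0.55 and -0.30.

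Of the genes for amino acid and peptide uptake, 3 were higher and 7 lower of 20 in 0 Ca2+ medium, 5 and 2 of 18 in standard medium, and 0 and 2 of 21 in 20 mM CaCl2 medium. The shares of all genes higher and lower were 18.7% and 20.9%, 13.4% and 14.9%, and 2.62% and 6.16%. The neutral amino acid permease gene mtr had 13.3 FPKM with staurosporine and 232 FPKM with DMSO in 0 Ca2+ medium, 81.4 and 253 FPKM in standard medium, and 211 and 246 FPKM in 20 mM CaCl2 medium. The peptide transporter gene NCU05079 had log2 ratios of -1.20, -0.98 and -0.77, and the vacuolar amino acid transporter gene NCU06231 had -0.17, -1.44 and -1.88. As with nmr, nit-2, nit-4, gln-1, en(am)-2 and gdh-1, the lowest of the 6 mtr levels was the 0 Ca2+ library with staurosporine. That library stands apart over all genes. The 5 GATA factor genes other than nit-2 included sub-1, with log2 ratios of -1.79, -0.76 and -0.70, NCU07039, with -1.95, -0.76 and -0.22, and sre, a regulator of siderophore synthesis, with -0.48, -1.35 and -0.47. In 0 Ca2+ medium 3 of the 5 were lower, as nit-2 was, against 20.9% of all genes, and 0 higher, against 18.7%. In standard medium 1 was higher and 1 lower, against 13.4% and 14.9%. In 20 mM CaCl2 medium 1 was higher and 0 lower, against 2.62% and 6.16%. Their median log2 ratio was -1.57, -0.76 and -0.44 in the order of calcium, and under equal sums -1.19, 0.098 and 0.11.

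**Figure D4:**
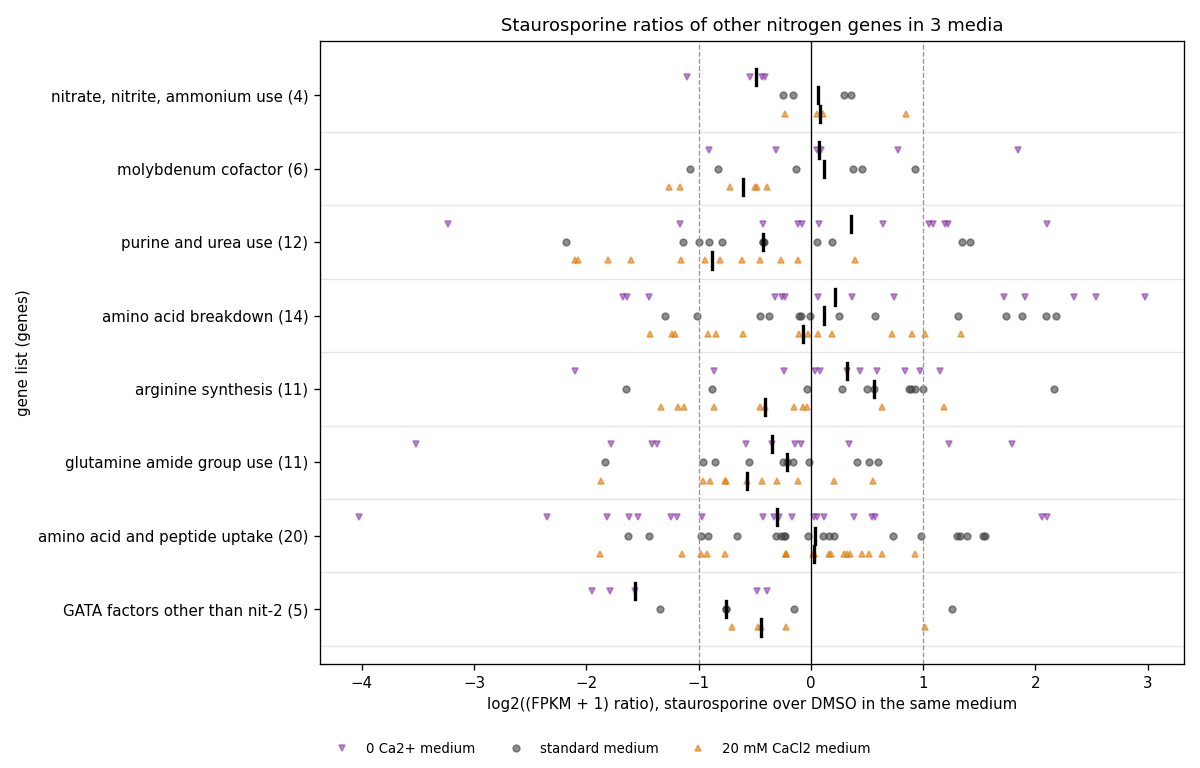
The log2((FPKM + 1) ratio) of staurosporine to DMSO (horizontal axis) for genes of 8 lists (rows, with the number of genes that averaged 1 FPKM or more over the 6 libraries), 1 symbol per gene and medium. Black bars are the list medians and dashed lines mark -1 and 1. The median of purine and urea use is 0.36 in 0 Ca2+, -0.43 in standard and -0.88 in 20 mM CaCl2 medium.

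Likeness of profile was measured as the root mean square difference of log2(FPKM + 1) over the 6 libraries, after subtraction of each gene's own mean, among 3160 genes with a symbol or informative product that averaged 10 FPKM or more. The gene most like gln-1 was ilv-2, of branched-chain amino acid synthesis, at 0.11, followed by alf1, of a tubulin-folding cofactor, at 0.13 and NCU05800, of a zinc knuckle protein, at 0.16. For am the closest were NCU11258, of an LYR family protein, at 0.15, ham-7 at 0.25 and the ADP/ATP carrier gene aac at 0.25. Profiles like those of nit-3 and gdh-1 were farther off. The closest to nit-3 were NCU06380, of a zinc transporter, at 0.46, NCU04676, of a glutathione S-transferase, at 0.52 and NCU05429, of a glucan branching enzyme, at 0.57. The closest to gdh-1 were the clock-controlled gene ccg-8 at 0.65, inv at 0.66 and vad-2 at 0.73. Like gdh-1, ccg-8 was low with staurosporine in 0 Ca2+ medium, at 9.50 FPKM against 42.8 FPKM with DMSO, and higher with staurosporine in standard medium, at 39.5 FPKM against 16.0 FPKM with DMSO. Among the 10 genes themselves the closest pairs were nmr and en(am)-2, at 0.38, and gln-1 and en(am)-2, at 0.40, and the farthest pair was nit-10 and gdh-1, at 2.25. The 6 libraries are shared by all these profiles.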

How the data were processed

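Per the submitters' processing notes, TopHat2 2.0.4, Cufflinks 2.0.2 and Cuffdiff were used; the genome build is not given in the sources used here. Per the file headers, each of 5 deposited tables holds, for 9691 genes, the authors' FPKM of 2 libraries, their log2 fold change (ratio), a test statistic, p and q values and a call. Library columns were assigned by column name, and in 3 of the 5 tables, where that name gives only the medium or only the agent, by the table's own title as well. Libraries in several tables had identical FPKM, with 0 of 9691 genes differing. The depth is unknown, so no counting interval is given, and low FPKM values gave no clear steps of whole reads. Symbols came from the tables and a RefSeq gene table of assembly NC12, used for names alone.

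Ratios are log2 with a pseudocount of 1. The staurosporine effect was tested two-sided in R 4.3.3 by limma 3.58.1's moderated test, with a variance trend, on the 3 ratios within a medium of 7415 genes with mean FPKM of at least 1, with Benjamini-Hochberg adjustment. The libraries are single, so p-values measure only the spread between media. Python 3.11.15 with pandas 2.3.3, numpy 2.4.6 and matplotlib 3.10.9 was used.

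The genes and lists were chosen with earlier results of these data known. The 8 lists are symbol and product patterns, from which 5 matches of other function were removed after their values were seen. Named genes are the 10 genes, up to 3 per list with the largest absolute mean log2 ratio, and the 3 profiles most like nit-3, gln-1, am and gdh-1. Alternatives were pseudocounts of 0.1 and 5, ratios centred on the median over genes reaching 10 FPKM, equal sums of 1000000, no filter, a minimum mean FPKM of 10, the authors' testable genes alone, leaving out 1 medium, an unpaired fit, no variance trend and no minimum fold.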

Additional observations from a re-analysis of the deposited data

Results flagged for a closer look

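Staurosporine ratios of 3 of the genes were past a log2 ratio of 1 in opposite directions in 2 media. For gdh-1 the ratio of staurosporine to DMSO in 0 Ca2+ medium minus that in standard medium was -6.13, and the ratio in 20 mM CaCl2 medium minus that in 0 Ca2+ medium was 5.21. For nit-10 the ratio in 20 mM CaCl2 medium minus that in 0 Ca2+ medium was -4.33, and for nit-3 it was -3.40. Each group is 1 library, so these differences were not tested.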

How the results depend on the processing

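The number of the 10 genes past the limma test was 0 under every alternative tried, with the smallest limma adjusted p among them between 0.0541 (without the 20 mM CaCl2 pair) and 0.9996 (without the standard pair). The number of all genes past the test, 12, was 6 with a pseudocount of 0.1, 26 with equal sums, and 0 with a pseudocount of 5, with centred ratios and with no filter. Leaving out 1 medium gave 0 to 576: 32 without the 0 Ca2+ pair, 0 without the standard pair and 576 without the 20 mM CaCl2 pair. List genes past a log2 ratio of 1 in standard medium numbered 25, and 14 with a pseudocount of 5. With equal sums the split of 15 higher and 10 lower became 35 and 1. In 20 mM CaCl2 medium 4 and 16 became 12 and 6 with equal sums. Equal sums shifts the median of all genes as well, by 0.83 in standard and 0.53 in 20 mM CaCl2 medium. The mean log2 ratio over the media turned to 0.45 for nit-10 and 0.31 for nit-3 with equal sums. Leaving out 1 medium, it ranged from -0.12 to 0.44 for nit-4, from -1.40 to 0.76 for nit-10, from -1.01 to 0.69 for nit-3, from -0.96 to 2.10 for gdh-1 and, with its sign kept, from -1.98 to -0.32 for nmr. The cause was not tested. No paired analysis by replicate number was possible because each group is 1 library; the fit pairs libraries by medium, and an unpaired fit called 13 genes. Single libraries with unknown depth limit every ratio within a medium.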
